A study of Mus musculus with 12 samples.

Results

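The genes described here are 10 inducible brakes on mitogen-activated protein kinase (MAPK) signalling, taken by symbol from a table of 33188 genes: the phosphatase genes Dusp1, Dusp4, Dusp5, Dusp6, Dusp8, Dusp10, Dusp14 and Dusp16 and the Sprouty genes Spry2 and Spry4. Each symbol matched 1 row of the table, and the table's coordinates (GRCm38) match GENCODE M21 except for 1 end of Dusp14. RNA was measured in kidneys of wild-type mice, in 12 strand-specific libraries that formed 3 groups of 4. XZSW was the hyperuricemia model given the decoction Xin-Zi-Sheng-Wan, HUA was the model alone, induced by potassium oxonate plus hypoxanthine, and CTL was the control group. That XZSW animals also received both agents is inferred from the design text, which says that the decoction was evaluated in the model. Doses, durations, age, sex and vehicle are not given in the sources used here, and neither is whether each sample was a different animal. A p-value here therefore reflects variation among samples within all 3 groups, and that variation could be technical. The test shares 1 estimate of the spread per gene over the 12 libraries, drawn toward that of other genes. Columns of the table carry the letters M, N and C, which the sample descriptions assign to XZSW, HUA and CTL. No other label checks that assignment, and if M and N were exchanged, XZSW and HUA would be exchanged throughout.

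Potassium oxonate blocks uricase, the enzyme that rodents use to break down uric acid, and hypoxanthine is a purine that is turned into uric acid. MAPKs (ERK, JNK and p38) are switched on by phosphorylation of a threonine and a tyrosine, and dual-specificity phosphatases of the Dusp family remove both phosphates. Many Dusp genes and the Sprouty genes are themselves switched on by MAPK signals, which makes them negative feedback regulators and common transcriptional readouts of the pathway. Sprouty proteins act further up, between receptor tyrosine kinases and the kinase Raf. In kidney, MAPKs are known to respond to tubular injury, growth factors and osmotic stress. The RNA level of a phosphatase does not measure its activity or the phosphorylation of a kinase.

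In the table the inducible nuclear phosphatase genes are Dusp1 (ENSMUSG00000024190, chr17:26505590-26562128, minus strand) and Dusp4 (ENSMUSG00000031530, chr8:34807297-34819894, plus strand). The ERK phosphatase genes are Dusp5 (ENSMUSG00000034765, chr19:53529109-53542431, plus strand) and Dusp6 (ENSMUSG00000019960, chr10:99263231-99267489, plus strand). Those of the JNK and p38 phosphatases are Dusp8 (ENSMUSG00000037887, chr7:142079490-142095843, minus strand), Dusp10 (ENSMUSG00000039384, chr1:184013302-184075636, plus strand) and Dusp16 (ENSMUSG00000030203, chr6:134715468-134792625, minus strand). The others are Dusp14 (ENSMUSG00000018648, chr11:84048041-84068801, minus strand), Spry2 (ENSMUSG00000022114, chr14:105891947-105896819, minus strand) and Spry4 (ENSMUSG00000024427).

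Upstream sequences from RefSeq (GRCm38.p6) were found for 8 of the 10 genes. They lie upstream of the start that RefSeq gives, and the table's spans of Dusp1, Dusp8 and Dusp5 begin further upstream, so all or part of each printed sequence lies within the gene's row. They are shown for Dusp1, Dusp8 and Dusp5, the members with a match to a full cyclic AMP response element or to a serum response element in the 250 bases before the start. In the Dusp1 and Dusp8 sequences capitals mark TGACG on either strand, the core of the cyclic AMP response element TGACGTCA, which contains it. In the Dusp5 sequence they mark 2 adjoining matches to the serum response element and 1 match to the core on the other strand.
Dusp1 (chr17:26508473-26508722, minus strand): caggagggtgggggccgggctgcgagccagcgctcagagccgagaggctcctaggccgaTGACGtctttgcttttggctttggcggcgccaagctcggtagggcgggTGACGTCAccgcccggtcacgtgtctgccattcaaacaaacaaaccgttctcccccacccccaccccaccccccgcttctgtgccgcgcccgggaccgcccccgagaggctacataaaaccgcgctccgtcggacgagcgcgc
Dusp8 (chr7:142095285-142095534, minus strand): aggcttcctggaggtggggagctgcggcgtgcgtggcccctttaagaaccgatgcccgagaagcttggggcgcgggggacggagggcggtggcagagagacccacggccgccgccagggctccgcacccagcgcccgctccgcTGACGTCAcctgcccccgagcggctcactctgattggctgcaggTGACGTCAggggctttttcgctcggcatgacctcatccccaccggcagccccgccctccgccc
Dusp5 (chr19:53528895-53529144, plus strand): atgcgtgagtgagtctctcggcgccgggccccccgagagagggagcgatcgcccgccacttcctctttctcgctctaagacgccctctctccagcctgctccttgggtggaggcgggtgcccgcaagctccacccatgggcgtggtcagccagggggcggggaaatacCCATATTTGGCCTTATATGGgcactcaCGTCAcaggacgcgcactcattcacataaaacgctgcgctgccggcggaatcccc

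The full element TGACGTCA was present once in the Dusp1 sequence and at 2 places in that of Dusp8, and 1.55% of 32851 promoters of the same length held it. The serum response element was found at 2 places in Dusp5 and in 1.47% of promoters. The core TGACG also occurred in Dusp16 and was held by 17.8% of promoters. The AP-1 motif TGANTCA (6.75% of promoters) and the ETS motif CCGGAAG (6.91%) had no match in any of the 8 upstream sequences, and Dusp6, Dusp10, Dusp14 and Spry2 had no match to any motif searched. All motifs were searched on both strands. A match is a stretch of letters and was not tested for binding.

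Libraries held 51.6 to 74.3 M counts, and all 10 genes had enough counts to be among the 19772 genes tested. Proximal tubule markers (Lrp2, Slc34a1, Slc5a2, Slc5a12, Slc22a6 and Cubn) summed to 6649 to 9362 CPM in XZSW, 1164 to 4302 CPM in HUA and 6459 to 8624 CPM in CTL. CPM, the share of a library's counts on the usual per-M scale, was computed with TMM (trimmed mean of M values) factors. Tubular injury markers (Havcr1, Lcn2, Krt8, Krt18, Krt20 and Sox9) summed to 223 to 340.3 CPM in XZSW, 1608 to 5042 CPM in HUA and 226 to 245 CPM in CTL. Libraries HUA2, HUA3, HUA4, XZSW3 and XZSW4 stood apart by a rise of expression with GC content, at slopes of 0.201 to 0.309 log2 units per 10% GC relative to the CTL mean, against -0.0603 to 0.0428 in the other 7. Slopes with transcript length, in log2 units per doubling relative to the CTL mean, were 0.219 in HUA1, 0.149 in XZSW1 and 0.105 in XZSW2. They were -0.058 to 0.0633 in the remaining libraries, and their part in the results below was not tested. In whole-kidney RNA, fewer cells of a type and less RNA per cell cannot be told apart, and the part of either marker change in the results below was not tested.

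In the comparison of HUA with CTL, which asks what the hyperuricemia model did to these genes, 6 of the 10 genes rose, 1 fell and 3 did not pass the test. The genes that rose were Dusp10, Dusp5, Dusp8, Spry2, Dusp14 and Dusp6, with log2 changes of 0.61 to 3.81, and the gene that fell was Dusp1. A gene was called at an edgeR adjusted p under 0.05 over all tested genes. By that rule 27.8% of all tested genes changed, 14.9% upward and 12.8% downward. With scaling by library totals, 5779 genes rose and 1320 fell, in place of 2950 and 2538, and the median log2 change of all tested genes moved by 0.33. The 10 genes had a median log2 change of 1.08, against 0.06 for all tested genes. For 6 of the 10 genes the HUA libraries lay wholly above or wholly below the CTL libraries, which held for 30.3% of all tested genes.

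In the comparison of XZSW with HUA, which asks what the decoction did in the model, 8 of the 10 genes fell and none rose. Among all tested genes 15.4% changed, 8.34% downward and 7.09% upward, that is 1649 and 1402 genes. Library totals gave 2714 downward and 836 upward, with a median shift of -0.17. All 10 log2 changes were negative, with a median of -1.08 against 0.01 for all tested genes, and Dusp1 and Spry4 did not pass. For 5 genes (Dusp4, Dusp5, Dusp8, Dusp10 and Dusp14) all XZSW libraries lay below all HUA libraries, against 18.1% of tested genes with libraries apart. Both comparisons use the HUA libraries, so their opposite signs are not independent of each other. Set against CTL, 2 of the 10 genes fell in XZSW, Dusp1 and Dusp4, and none rose, 0 also at an unadjusted p under 0.05 and with DESeq2. The background for that comparison was 4.99% of tested genes, 2.27% downward and 2.72% upward (449 and 538 genes, against 224 and 1221 with library totals, which moved the median by 0.16), and the median of the 10 genes was -0.43 against 0.04. XZSW libraries lay wholly below CTL libraries for 4 genes, Dusp1, Dusp4, Dusp16 and Spry4, and libraries were apart for 21.6% of tested genes.

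**Figure D1:**
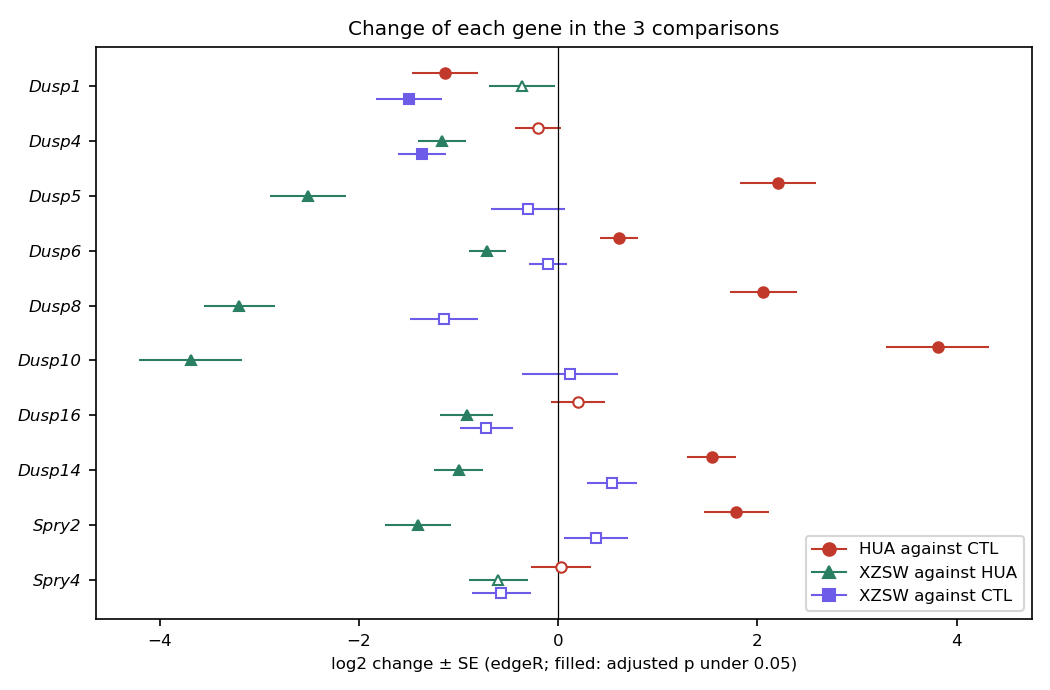
Log2 change ± SE of each gene in HUA against CTL (circles), XZSW against HUA (triangles) and XZSW against CTL (squares), with filled symbols for an edgeR adjusted p under 0.05. Dusp10, Dusp8 and Dusp5 have the widest opposite changes in the first 2 comparisons, while Dusp1 and Dusp4 are the 2 genes with filled squares, at -1.50 and -1.37.

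Dusp10, Dusp8 and Dusp16 encode phosphatases that prefer JNK and p38, the stress-activated MAPKs, over ERK. Dusp10 had the largest fold change of the 10 genes in HUA against CTL. It stood at 2.66, 1.92, 2.18 and 1.71 CPM in XZSW1 to XZSW4, at 59.4, 26.0, 11.0 and 12.8 CPM in HUA1 to HUA4 and at 2.39, 2.54, 0.883 and 1.96 CPM in CTL1 to CTL4. The lowest HUA library was thus above every library of the other groups, and HUA1 was the highest of the HUA libraries. Dusp10 rose 14.0-fold in HUA against CTL (log2 change 3.81, SE 0.52, adjusted p = 0.000295) and fell in XZSW against HUA by 3.69 on the log2 scale (SE 0.52, adjusted p = 0.0011). Without HUA1 these log2 changes were 3.13 and -2.98. Between XZSW and CTL the log2 difference was 0.12 with a 95% interval of -0.91 to 1.16.

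Dusp8 was high in the HUA libraries too, and its XZSW values reached below the CTL range. They were 2.99, 5.03, 1.97 and 2.44 CPM in XZSW1 to XZSW4, 41.0, 32.2, 20.8 and 20.4 CPM in HUA1 to HUA4 and 6.20, 7.99, 4.005 and 9.30 CPM in CTL1 to CTL4. HUA libraries did not overlap with either other group, and 3 of the 4 XZSW libraries lay below the lowest CTL library. Dusp8 rose 4.16-fold in HUA against CTL (adjusted p = 0.000971) and fell by 3.20 on the log2 scale in XZSW against HUA (SE 0.36, adjusted p = 0.000384), which was the smallest p of any of the 10 genes in that comparison. Its log2 difference of -1.15 between XZSW and CTL (95% interval -1.88 to -0.42) missed the threshold after adjustment over all genes, with an adjusted p of 0.0668, and passed it with DESeq2 (adjusted p = 0.0146), without HUA1 (0.0493) and without XZSW2 (0.0359).

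Dusp16 measured 28.6, 31.2, 18.6 and 17.0 CPM in XZSW1 to XZSW4, 76.05, 37.8, 36.3 and 30.5 CPM in HUA1 to HUA4 and 41.4, 39.6, 36.6 and 39.3 CPM in CTL1 to CTL4. Only HUA1 stood above the CTL range, and the log2 change in HUA against CTL was 0.20 (SE 0.27, adjusted p = 0.623). That value turned to -0.13 without HUA1, and passed at 0.80 (adjusted p = 0.00227) once the GC slope kind entered the fit. In that fit HUA1 is the only HUA library that shares the low GC slope of CTL, and its length slope was higher than in CTL. In XZSW against HUA Dusp16 fell by 0.92 on the log2 scale (adjusted p = 0.0368), a call that was lost in 7 of the 12 fits that each left out 1 library: without any of the 4 CTL libraries, HUA1, XZSW3 or XZSW4 the adjusted p was 0.052 to 0.0963. It was also lost on the 8 libraries of the comparison (0.0998) and with no filter on low counts (0.0501). All XZSW libraries were below all CTL libraries, with a log2 difference of -0.72 (95% interval -1.30 to -0.13, adjusted p = 0.136) that passed on the 8 libraries of that comparison (adjusted p = 0.0389) and without HUA1 (0.0371).

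**Figure D2:**
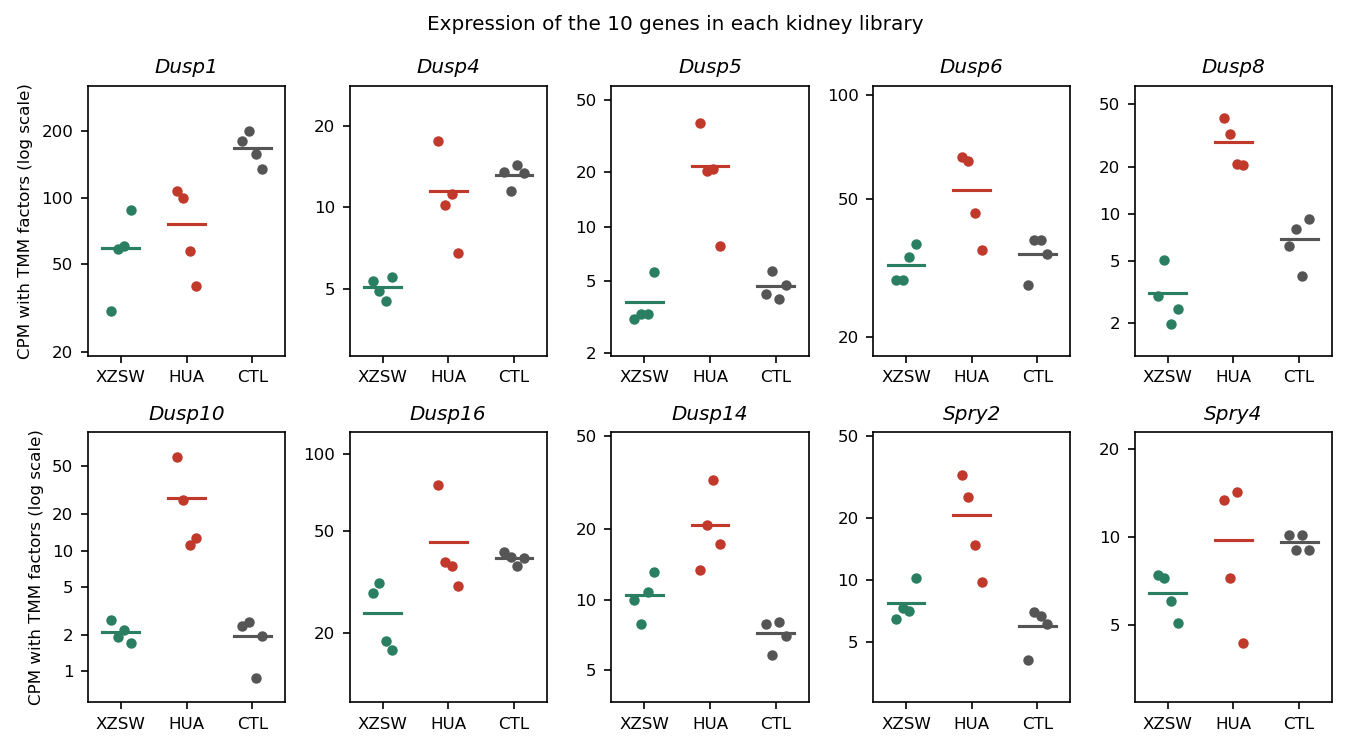
CPM with TMM factors on a log axis for each of the 10 genes, 1 point per library and a line at the mean of 4, for XZSW, HUA and CTL. Dusp5, Dusp8, Dusp10, Dusp14 and Spry2 have HUA points wholly above CTL points, and Dusp1 has its CTL points above all others.

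Dusp5 and Dusp6 encode the phosphatases specific for ERK, Dusp5 in the nucleus and Dusp6 in the cytoplasm. Dusp5, whose upstream sequence above holds the 2 serum response elements, measured 3.09, 3.29, 3.28 and 5.61 CPM in XZSW1 to XZSW4, 37.6, 20.4, 20.9 and 7.81 CPM in HUA1 to HUA4 and 4.25, 5.73, 4.005 and 4.74 CPM in CTL1 to CTL4. HUA4, the lowest HUA library, remained above the highest CTL library. Dusp5 rose 4.63-fold in HUA against CTL (log2 change 2.21, SE 0.38, adjusted p = 0.00114) and fell in XZSW against HUA by 2.51 on the log2 scale (SE 0.38, adjusted p = 0.00161). XZSW and CTL libraries overlapped, with a log2 difference of -0.30 (95% interval -1.09 to 0.49).

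Dusp6, the other ERK phosphatase, measured 29.2, 29.2, 34.0 and 37.2 CPM in XZSW1 to XZSW4, 66.3, 64.4, 45.6 and 35.7 CPM in HUA1 to HUA4 and 28.3, 38.2, 38.1 and 34.8 CPM in CTL1 to CTL4. HUA1, HUA2 and HUA3 exceeded every CTL and XZSW library, while HUA4 lay inside both ranges. Dusp6 rose 1.52-fold in HUA against CTL (adjusted p = 0.0305) and fell by 0.71 on the log2 scale in XZSW against HUA (adjusted p = 0.0252). The rise was not called without any 1 of the 4 CTL libraries, HUA1 or HUA2 (adjusted p 0.0504 to 0.0952) or with the GC slope kind in the fit (0.068), and the fall was not called without XZSW1 or XZSW2 (0.0629 and 0.0718) or on the 8 libraries of the comparison (0.0703). Between XZSW and CTL its log2 difference was -0.10 (95% interval -0.51 to 0.31).

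Dusp1 and Dusp4 encode inducible nuclear phosphatases that act on several MAPKs, and Dusp1 is an immediate early gene that glucocorticoids and stress switch on. Dusp1 measured 30.8, 58.6, 60.2 and 87.9 CPM in XZSW1 to XZSW4, 107, 99.6, 57.2 and 39.9 CPM in HUA1 to HUA4 and 180.3, 199, 156 and 135 CPM in CTL1 to CTL4. Every HUA and every XZSW library was below every CTL library, and the HUA and XZSW ranges overlapped. Dusp1 averaged 76.0 ± 32.6 CPM in HUA and 168 ± 27.9 CPM in CTL (SD, n = 4 each), a fall of 1.14 on the log2 scale (SE 0.33, adjusted p = 0.0201). It averaged 59.4 ± 23.3 CPM in XZSW, 2.82-fold lower than in CTL (log2 change -1.50, adjusted p = 0.026), and between XZSW and HUA its log2 difference of -0.36 had a 95% interval of -1.06 to 0.35. Dusp1 thus fell against CTL in both XZSW and HUA.

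Neither Dusp1 call held in every fit. The fall in HUA was not called without CTL2, HUA3 or HUA4 (adjusted p 0.0501 to 0.0666), with library totals (log2 change -0.82, adjusted p = 0.0611), with the GC slope kind in the fit (-1.18, 0.0594) or with limma on log2(FPKM + 1) (-0.85, 0.0522), and the fall in XZSW was not called without any 1 of CTL1, CTL2, CTL3, XZSW1, XZSW2 and XZSW3 (0.0515 to 0.0832). The Dusp1 row spans 26505590 to 26562128 on chromosome 17 (GRCm38, minus strand), and its far end overlaps Ergic1 on the other strand, which averaged 102 CPM in XZSW, 86.5 CPM in HUA and 129 CPM in CTL. Whether the authors' counting used the strand is not given in the sources used here, so reads from the overlap cannot be told apart.

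Dusp4, the other inducible nuclear phosphatase, measured 5.34, 4.90, 4.53 and 5.56 CPM in XZSW1 to XZSW4, 17.5, 10.2, 11.2 and 6.79 CPM in HUA1 to HUA4 and 13.5, 11.5, 14.3 and 13.4 CPM in CTL1 to CTL4. XZSW libraries lay close together and below all 8 other libraries. Dusp4 fell in XZSW against CTL by 1.37 on the log2 scale (SE 0.24, adjusted p = 0.0132) and in XZSW against HUA by 1.17 (SE 0.24, adjusted p = 0.00697). Both calls held in each of the 12 fits that left out a library. The fall against HUA was not called within the libraries of high GC slope (-0.89, adjusted p = 0.182). In HUA against CTL the log2 difference was -0.20 (95% interval -0.71 to 0.30), and it was 0.12 with library totals.

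Dusp14 encodes a small atypical phosphatase that lacks the kinase-binding domain of the others. It measured 9.97, 7.86, 10.8 and 13.1 CPM in XZSW1 to XZSW4, 13.3, 20.8, 32.2 and 17.2 CPM in HUA1 to HUA4 and 7.84, 5.83, 8.03 and 6.99 CPM in CTL1 to CTL4. It was lowest in HUA1 and highest in HUA3 among the HUA libraries. It rose 2.91-fold in HUA against CTL (adjusted p = 0.000937) and fell by 1.00 on the log2 scale in XZSW against HUA (adjusted p = 0.0184), a call that was lost without HUA3 (0.0579) or XZSW2 (0.0578) and on the 8 libraries of the comparison (0.0571). Against CTL, XZSW had a log2 difference of 0.54 (SE 0.25, adjusted p = 0.219).

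Of the Sprouty genes, Spry2 changed and Spry4 was not called. Spry2 measured 6.45, 7.28, 7.01 and 10.2 CPM in XZSW1 to XZSW4, 32.4, 25.3, 14.7 and 9.76 CPM in HUA1 to HUA4 and 4.05, 7.00, 6.65 and 6.07 CPM in CTL1 to CTL4. HUA libraries were all above CTL, and HUA4 lay just under XZSW4. Spry2 rose 3.45-fold in HUA against CTL (log2 change 1.79, SE 0.33, adjusted p = 0.00175) and fell in XZSW against HUA by 1.41 on the log2 scale (SE 0.33, adjusted p = 0.0127), and its log2 difference between XZSW and CTL was 0.38 (95% interval -0.32 to 1.08). Spry4 measured 7.41, 7.25, 6.07 and 5.10 CPM in XZSW1 to XZSW4, 13.4, 7.26, 14.2 and 4.37 CPM in HUA1 to HUA4 and 10.1, 9.06, 10.1 and 9.02 CPM in CTL1 to CTL4. The HUA libraries of Spry4 lay on both sides of the CTL range, and the log2 difference of 0.03 had a 95% interval of -0.62 to 0.69. XZSW libraries were all below CTL, with a log2 difference of -0.57 (SE 0.30, adjusted p = 0.283). Against HUA the difference of -0.60 (adjusted p = 0.204) passed without HUA4 (-0.86, adjusted p = 0.0332). Whether Spry2 and Spry4 differed in their change was not tested.

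The HUA libraries differed from each other in a similar way for most of the genes. HUA1 had the highest value of the 4 HUA libraries for 8 of the 10 genes, and HUA4 had the lowest for 8. HUA3 was the highest for Dusp14 and Spry4. These counts were not made over all tested genes, so they cannot be read as particular to the 10 genes. The injury markers had another order, with sums of 2085, 1608, 5042 and 3893 CPM in HUA1 to HUA4, and the proximal tubule markers summed to 3143, 4302, 2300 and 1164 CPM. In CTL no library was highest for more than 5 of the 10 genes, and in XZSW the library XZSW4 was highest for 6. Of the HUA libraries, HUA1 had the highest slope with transcript length and HUA4 the lowest. The part of that slope in the order of the libraries was not tested.

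**Figure D3:**
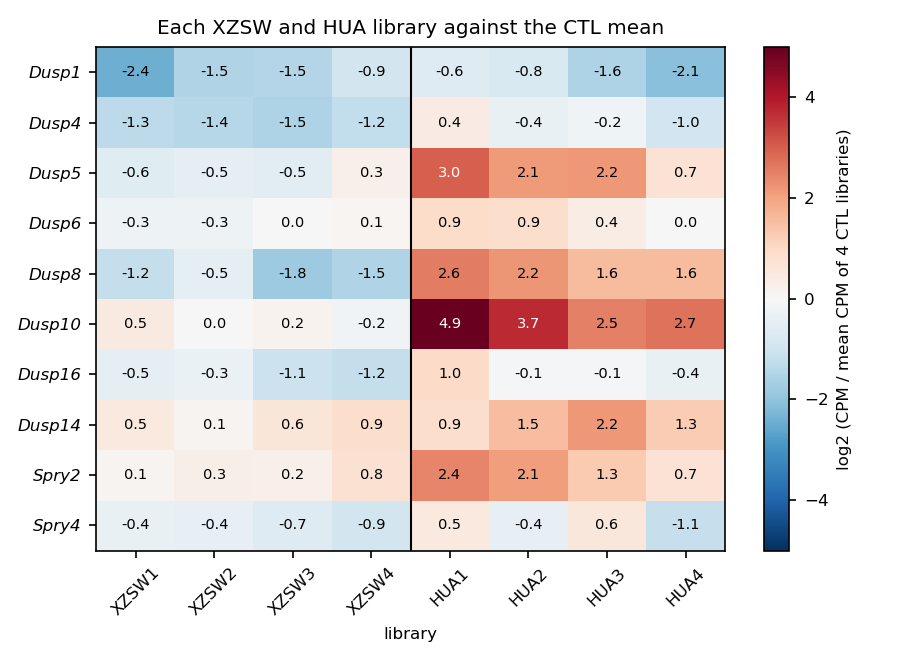
Log2 ratio of the CPM of each XZSW and HUA library to the mean CPM of the 4 CTL libraries, for the 10 genes. Ratios reach 4.93 for Dusp10 in HUA1 and -2.44 for Dusp1 in XZSW1, and Dusp1 is below 0 in all 8 libraries.

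Set against each other per length, the genes changed places. In FPKM, Dusp1 had the highest mean of the 10 genes in every group, with 16.6 ± 6.74 FPKM in XZSW, 23.05 ± 9.66 FPKM in HUA and 39.9 ± 5.04 FPKM in CTL (SD, n = 4 each), and Dusp6 came next in each. In CTL the 4 libraries of Dusp1, at 33.4 to 44.8 FPKM, lay above those of Dusp6, at 7.08 to 9.90 FPKM, and those above Dusp16 and Dusp4, which overlapped at 3.78 to 4.16 and 3.13 to 4.25 FPKM. The lowest mean in CTL was that of Dusp10, at 0.497 ± 0.180 FPKM. In HUA the ranges of Dusp1 (12.1 to 32.3 FPKM) and Dusp6 (11.5 to 21.1 FPKM) overlapped, and Dusp10 averaged 8.98 ± 7.30 FPKM, close to Spry2 at 9.87 ± 4.83 FPKM and Dusp5 at 8.81 ± 4.91 FPKM, whose ranges all overlapped. In XZSW the lowest means were those of Dusp8, at 0.578 ± 0.215 FPKM, and Dusp10, at 0.644 ± 0.143 FPKM, which overlapped.

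Summed over the 8 phosphatase genes, deposited FPKM, without TMM factors, were 38.4 ± 8.49 in XZSW, 84.6 ± 28.9 in HUA and 62.4 ± 3.96 in CTL (SD, n = 4 each). Dusp1 made up 29.0 to 50.4% of this sum in XZSW, 23.5 to 32.3% in HUA and 58.4 to 67.3% in CTL. Its share was lower in every HUA and every XZSW library than in any CTL library. The JNK and p38 phosphatases Dusp8, Dusp10 and Dusp16 together held 11.2 ± 4.65% in XZSW, 23.6 ± 6.06% in HUA and 8.99 ± 1.40% in CTL (SD, n = 4 each), and every HUA library lay above all others. The ERK phosphatases Dusp5 and Dusp6 held 26.7 to 32.9% in XZSW, 29.0 to 31.3% in HUA and 13.2 to 18.6% in CTL. Shares of a sum move together, and these are descriptions with no test. The TMM factors used for CPM were 0.856 to 0.922 in CTL and 1.09 to 1.15 in HUA. Without them, FPKM ran higher in HUA relative to CTL than CPM did. Dusp4 averaged 4.20 FPKM in HUA and 3.81 FPKM in CTL, but 11.4 and 13.2 CPM. The sums of HUA libraries, 50.6 to 119 FPKM, overlapped those of CTL, 57.2 to 66.6 FPKM. The part of scaling in the sums was not tested, and shares within a library do not depend on it. Shares can depend on the slopes with GC content and transcript length, which differed between libraries, and that part was not tested either.

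**Figure D4:**
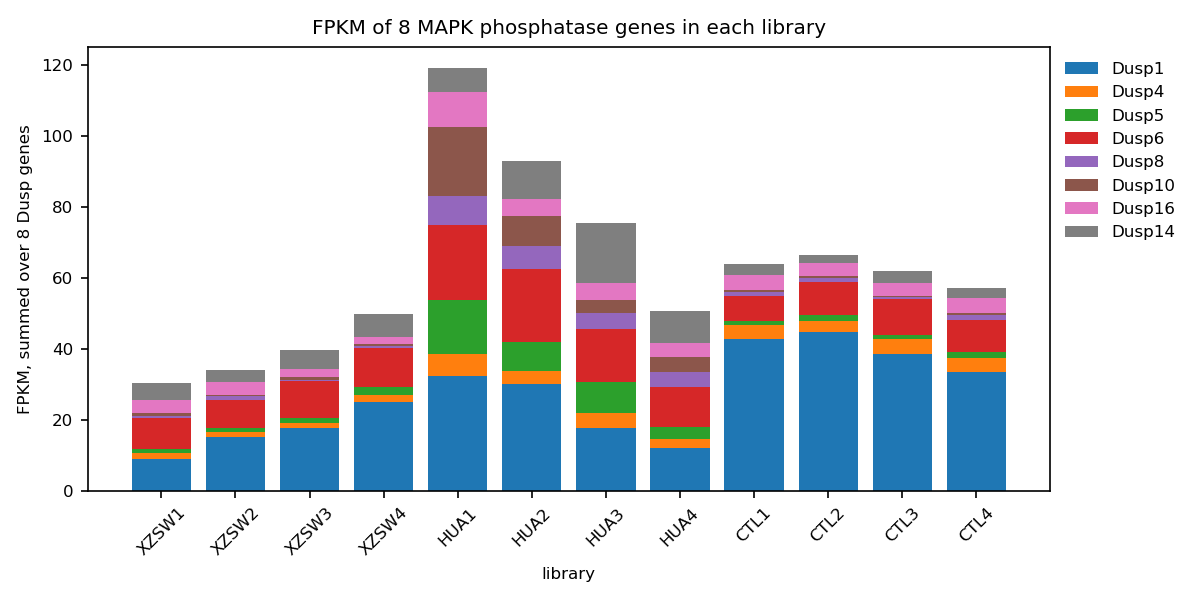
Deposited FPKM, without TMM factors, of the 8 phosphatase genes stacked for each library, with XZSW, HUA and CTL from left to right. The sum is highest in HUA1, at 119 FPKM, and lowest in XZSW1, at 30.2 FPKM, and Dusp1 is the largest part of every CTL bar.

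In the 5 libraries of high GC slope (XZSW3, XZSW4, HUA2, HUA3 and HUA4) 9 of the 10 XZSW against HUA changes kept a negative sign. The log2 changes there were -3.47 for Dusp8, -3.09 for Dusp10, -1.87 for Dusp5, -0.94 for Spry2 and 0.18 for Dusp1. Of the 10 genes 1 was called there, Dusp8 (adjusted p = 0.0312), among 41 genes called in all. Low GC slopes were found in XZSW1, XZSW2, HUA1 and all of CTL, though XZSW1, XZSW2 and HUA1 had higher length slopes than CTL. HUA1 is the only HUA library among these and had the highest HUA value for 8 of the 10 genes, so its differences from XZSW and CTL are given as values of 1 library, with no call. Against HUA1 the log2 differences of XZSW1 and XZSW2 were -4.67 for Dusp10, -3.54 for Dusp5, -3.34 for Dusp8, -2.22 for Spry2, -0.85 for Spry4 and -0.56 for Dusp14. HUA1 differed from CTL by 4.93 for Dusp10, 0.96 for Dusp16 and -0.64 for Dusp1. Between XZSW1 and XZSW2 and the 4 CTL libraries, the log2 differences were -1.89 for Dusp1, -1.34 for Dusp4 and -0.37 for Dusp16. These values come from the same fit, rest on XZSW1 and XZSW2 alone and are given with no call.

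Markers of other cell types moved with the groups as well. Of 6 macrophage markers (Cd68, Adgre1, Itgam, Csf1r, C1qa and Cd14) 4 rose in HUA against CTL and 3 fell in XZSW against HUA. Their sum was 42.3 to 123.5 CPM in XZSW, 179 to 293 CPM in HUA and 50.5 to 77.4 CPM in CTL. Of the proximal tubule markers, 4 of 6 fell in HUA relative to CTL, and 5 of 6 were higher in XZSW than in HUA. Further, all 6 injury markers rose in HUA against CTL and fell in XZSW against HUA. In XZSW against CTL some markers were called higher: Lcn2 (7.29-fold, adjusted p = 0.0249) and Krt18 (2.35-fold, adjusted p = 0.0157) among the injury markers, and Cd68 (3.17-fold) and Itgam (8.34-fold) among the macrophage markers. Of 6 endothelial markers, whose sum was 135 to 228 CPM in XZSW, 64.9 to 191 CPM in HUA and 128 to 163 CPM in CTL, 1 fell in HUA relative to CTL and 1 was called higher in XZSW than in HUA. Of 4 fibroblast and pericyte markers 2 rose in HUA against CTL, Col1a1 by 12.9-fold and Pdgfrb by 2.39-fold, the latter with overlapping libraries. Col1a1 was 6.96-fold higher in XZSW than in CTL, but its XZSW libraries, at 4.55 to 75.3 CPM, overlapped CTL at 3.03 to 5.18 CPM. Pdgfra and Dcn were not called in any comparison. The 4 markers summed to 34.3 to 169 CPM in XZSW, 89.0 to 174 CPM in HUA and 36.4 to 59.1 CPM in CTL. The podocyte markers Nphs1 and Wt1, 2 of 4, were called higher than in CTL in both XZSW and HUA, with sums of 234 to 329.8 CPM in XZSW, 117 to 288 CPM in HUA and 137 to 173 CPM in CTL. Both haemoglobin genes used as blood markers fell in HUA against CTL, with sums of 48.2 to 403 CPM in XZSW, 13.0 to 138 CPM in HUA and 254 to 399 CPM in CTL. The 4 thick ascending limb and distal tubule markers were Umod, Slc12a1, Slc12a3 and Calb1. Slc12a3 and Calb1 were called higher in XZSW than in HUA, and Slc12a3 also higher than in CTL (log2 change 1.13). Umod and Slc12a1 were not called in any comparison, and their log2 changes in XZSW against CTL were -0.40 and -0.81. Of 3 collecting duct markers (Aqp2, Atp6v1g3 and Slc4a1) only Slc4a1 was called. Slc4a1, which red cells express too, fell in HUA relative to CTL and was called higher in XZSW than in HUA. The lymphocyte markers Cd3e and Cd79a summed to at most 2.40 CPM in any library, and neither was called. No marker listed was at 0 counts in all libraries of a group. The part of any of these cells was not tested.

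Other genes of the pathway were counted by list. Medians near 0 are within the shifts that library totals bring, given above. Shares called are to be read against 27.8% of all tested genes in HUA against CTL, 15.4% in XZSW against HUA and 4.99% in XZSW against CTL. Of 12 transcripts known to depend on ERK, 8 rose and 1 fell in HUA against CTL, with a median log2 change of 2.09, and 7 fell and 1 rose in XZSW against HUA, with a median of -1.94, which makes 75% and 66.7% of the list. By edgeR none of the 12 passed in XZSW against CTL, with a median of -0.04, and 2 had an unadjusted p under 0.05, among them Phlda1 (adjusted p = 0.0668). Phlda1, a pleckstrin-homology protein, averaged 8.44 CPM in XZSW, 39.95 CPM in HUA and 3.43 CPM in CTL, and rose in HUA against CTL by 3.54 on the log2 scale (SE 0.41, adjusted p = 0.000104). Myc, a growth transcription factor, averaged 15.2 CPM in XZSW, 91.2 CPM in HUA and 10.3 CPM in CTL and rose in HUA against CTL by 3.14 (adjusted p = 0.000128), and Epha2, an ephrin receptor, fell in XZSW against HUA by 2.26 (adjusted p = 0.00481). Etv1, an ETS transcription factor, went the other way and averaged 12.45 CPM in HUA against 42.6 CPM in CTL (log2 change -1.78, adjusted p = 0.00104).

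Among the kinases themselves, of 23 genes of the MAPK cascade, from Ras to the MAPKs, 5 rose and 3 fell in HUA against CTL, with a median log2 change of 0.06, and 2 fell and 1 rose in XZSW against HUA, with a median of 0.02. These are 34.8% and 13% of the list, close to the shares of all tested genes. Nras, a Ras GTPase, rose in HUA against CTL by 1.29 on the log2 scale and fell in XZSW against HUA by 1.15 (adjusted p = 0.000275 and 0.00157). Mapk11, a p38 isoform, and Mapk7, which encodes ERK5, rose in HUA against CTL by 2.10 and 1.57, and were the 2 genes of this list that passed in XZSW against CTL, at log2 changes of 1.36 and 1.00. Mapk13, another p38 isoform, fell in XZSW against HUA by 1.13, and the JNK gene Mapk9 rose by 0.45. In HUA against CTL the 3 genes that fell were Map2k6, Mapk9 and the p38 gene Mapk14. Their log2 changes were -1.41, -0.49 and -0.55. The p38 genes called in HUA against CTL thus went both ways. Mapk14 averaged 83.3 CPM in HUA and 122 CPM in CTL, while Mapk11 averaged 8.57 CPM in HUA. Of 11 MAP3 kinase (Map3k) genes, 4 rose and none fell in HUA against CTL and 3 fell and none rose in XZSW against HUA (36.4% and 27.3%). The genes that did so included Map3k1, at log2 changes of 1.54 and -1.22, and Map3k14, which encodes the NF-kB-inducing kinase NIK, at 1.66 and -1.53.

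Of 24 other MAPK phosphatases and feedback inhibitors, 23 were tested. In HUA against CTL 6 rose and 1 fell, and in XZSW against HUA 3 fell and 1 rose, with medians of 0.21 and -0.29 (30.4% and 17.4% of the list, close to the shares of all tested genes). Spry1, a further Sprouty gene, averaged 9.29 CPM in XZSW, 33.1 CPM in HUA and 7.61 CPM in CTL. It rose in HUA against CTL by 2.12 on the log2 scale (adjusted p = 0.000379) and fell in XZSW against HUA by 1.83 (adjusted p = 0.00219). Spred3, a Sprouty-related inhibitor, and Il17rd, a membrane antagonist of FGF signalling, rose in HUA against CTL by 2.33 and 1.27, and Spred3 was the 1 gene of the list that passed in XZSW against CTL (log2 change 1.35, adjusted p = 0.0343). Dusp3, a small phosphatase, fell in XZSW against HUA by 0.88, while Dusp15 rose by 2.54 (adjusted p = 0.0126), with means of 8.13 CPM in XZSW and 1.40 CPM in HUA. Of 16 receptors and adaptors above the Sprouty proteins 5 rose and 3 fell in HUA against CTL (50%). The receptor genes Fgfr1 and Fgfr2 and the adaptor gene Shc1 were among those that rose, at log2 changes of 0.69, 0.99 and 0.66. Fgfr3, Kdr and Gab1 fell, at -1.06, -0.96 and -0.53. Medians of this list were 0.07 in HUA against CTL and -0.22 in XZSW against HUA. In XZSW against HUA 3 rose and 3 fell (37.5%), with Fgfr3 at 1.13, Fgfr4 at 0.58 and Shc1 at -0.52, and by edgeR none of the 16 passed in XZSW against CTL, where 4 had an unadjusted p under 0.05. None of the 11 MAP3 kinase genes passed by edgeR in XZSW against CTL, and 2 had an unadjusted p under 0.05.

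**Figure D5:**
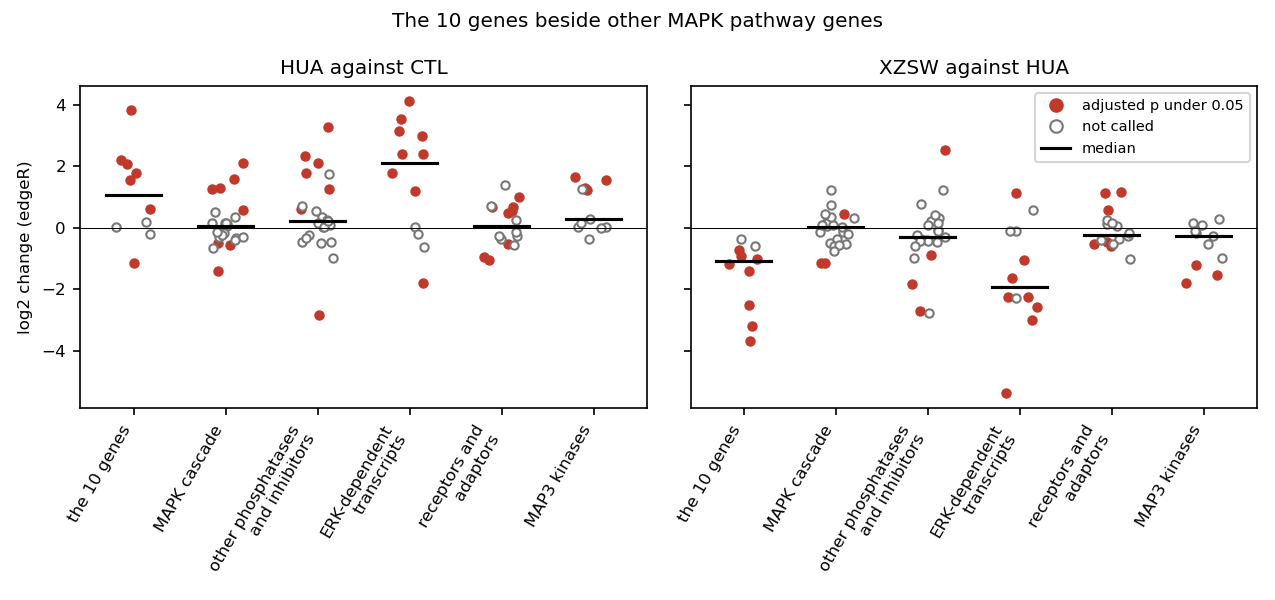
Log2 change of each gene in HUA against CTL (left) and XZSW against HUA (right) for the 10 genes and 5 lists of other MAPK pathway genes, with red points at an edgeR adjusted p under 0.05 and a line at the median. The medians of the 10 genes, 1.08 and -1.08, lie between those of the ERK-dependent transcripts, 2.09 and -1.94, and those of the MAPK cascade, 0.06 and 0.02.

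Genes with the most similar profile over the 12 libraries were named by the Pearson correlation of log2(CPM + 1), as a description. The libraries form 3 groups, so any gene with the same group differences scores high. Dusp10 was closest to Lif, a cytokine gene, and Klf6, a transcription factor gene (r = 0.976 and 0.961). Dusp8 was closest to Maff and Rhob (both r = 0.971), Dusp5 to F3, which encodes tissue factor, and the AP-1 gene Fosl1 (0.967 and 0.961), and Spry2 to Egr2 and Phlda1 (0.965 and 0.964). Dusp6 was closest to Plk2 and again to Egr2 (0.929 and 0.926). Dusp14 was closest to Cdc42ep5 and Opn3 (0.986 and 0.968). Dusp16, Dusp4, Spry4 and Dusp1 were closest to other genes: Csnk1a1 and Hnrnph2 for Dusp16 (0.986 and 0.950), Ppp1cb and Lin7c for Dusp4 (0.969 and 0.928), Larp1 and Qk for Spry4 (0.953 and 0.947) and Tmem267 and Umad1 for Dusp1 (0.918 and 0.914). Among the 10 genes the highest correlation was between Dusp6 and Spry2 (r = 0.94), and Dusp1 had r of -0.15 with Dusp10 and 0.71 with Dusp4.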

How the data were processed

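RNA of 12 kidney libraries was analysed. The submitters' processing notes name cutadapt 1.9, HISAT2 2.2.1 and the build GRCm38; which program counted reads, and on which annotation, is not given in the sources used here. Per gene and library the authors deposited raw counts and, beside them, FPKM values. The counts were filtered with filterByExpr, scaled by TMM and tested with edgeR's quasi-likelihood test over all 12 libraries with group as the only term, with Benjamini-Hochberg adjustment over 19772 genes. SEs come from the F statistic and 95% intervals from the test's degrees of freedom. CPM use TMM factors, and FPKM are as deposited. The tools were edgeR 4.0.16 and limma 3.58.1 with DESeq2 1.42.0 in R 4.3.3, and Python 3.11.15. Scripts were tested on simulated data. Counts of replicates differed beyond counting error. Chi-square over its degrees of freedom was 25.9 to 60.3 in CTL, 86.2 to 253 in XZSW and 213 to 467 in HUA. GC content and transcript length came from GENCODE M21.

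The 10 genes, the lists and the tests were chosen with earlier results of these data known. Named genes are the 10 genes, the 3 genes of smallest p per list and comparison (not all are described), and per gene the 2 closest genes in profile with a mean FPKM of at least 1 and no predicted-gene name. Mapk14 and Kdr are named as well, since they fell in HUA against CTL. No protein sequences were used here. The alternatives were other scalings, filters, tests and pseudocounts, fits on 8 libraries, a replicate block, the GC slope kind as a term and leaving out each library. Fits within libraries of one kind of GC slope were added after the data were seen.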

Additional observations from a re-analysis of the deposited data

Results flagged for a closer look

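For each gene and group the library furthest out was compared with the other 3 (Dixon's ratio at its 95% critical value), in 30 sets of 4 libraries, of which chance alone flags about 1 in 20. Dusp5 in XZSW4 stood at 5.61 CPM, above the other XZSW libraries at 3.09 to 3.29 CPM, with a gap of 0.919 of the range. Dusp16 in HUA1 stood at 76.05 CPM, above the other HUA libraries at 30.5 to 37.8 CPM, with a gap of 0.84 of the range.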

How the results depend on the processing

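The number of the 10 genes called in HUA against CTL was 5 to 7 over all alternatives, leaving out 1 library included. In XZSW against HUA it was 6 to 9 without 1 library, 5 with the 8 libraries of the comparison alone and 1 within the libraries of high GC slope. In XZSW against CTL it was 1 to 4 without 1 library (1 without CTL1, CTL2, CTL3, XZSW1 or XZSW3 and 4 without HUA1) and 4 with the 8 libraries alone. Fits on fewer libraries have fewer degrees of freedom, though in XZSW against CTL the count rose on the 8 libraries. In that comparison the fit of all 12 libraries takes its spread from the HUA libraries as well. The cause of these differences was not tested. The count of all genes called in XZSW against HUA was 3051 in the fit of all 12 libraries, 1439 on 8 libraries, 41 within the high-slope libraries, 1711 without HUA3 and 1845 without XZSW2. In XZSW against CTL it was 987, 2625 on 8 libraries, 529 with no filter, 2417 with DESeq2, 1744 with limma on log2(FPKM + 0.1), 1750 with the GC slope kind as a term, 2841 within the low-slope libraries and 133 (without CTL2) to 1596 (without HUA1) with 1 library left out.

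Of 670 single-gene values, 597 kept their direction and side of the threshold, 45 lost a call and 12 gained one. Changes not called in the fit of all 12 libraries are among the 670 and cannot lose a call. The sign changed in 16 values, none of them a called value. For Dusp4 in HUA against CTL the log2 change became 0.12 with library totals, 0.07 with the GC slope kind as a term and with both limma fits on FPKM, 0.41 within the low-slope libraries (where HUA1 is the only HUA library) and 0.01 without HUA4 (-0.45 to 0.01 over the 12 omissions). Dusp16 in that comparison became -0.13 without HUA1 (-0.13 to 0.38), and Spry4 became -0.08 with the replicate block, -0.12 without HUA1 and -0.17 without HUA3 (-0.17 to 0.31). Dusp1 in XZSW against HUA became 0.18 within the high-slope libraries. In XZSW against CTL, Dusp6 became 0.06 with library totals and 0.11 and 0.12 with limma, and Dusp10 became -0.11 without CTL3 and -0.0048 without XZSW1 (-0.11 to 0.28).

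Replicate numbers are shared by the groups, but deviations of same-numbered libraries from their group means had correlations of -0.036 to 0.239, so the numbers were not taken to pair the samples. With the replicate block 6 genes were called in HUA against CTL, 8 in XZSW against HUA and 2 in XZSW against CTL. The block ended the calls of Dusp6 in HUA against CTL (0.60, adjusted p = 0.0573) and Dusp1 in XZSW against CTL (-1.47, 0.053) and added that of Dusp8 there (-1.19, 0.041).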
